A study of Mus musculus with 13 samples.

Results

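These results concern the STAT3 CUT&RUN regions that lie at the ends of genes in activated mouse B cells. Peaks of 12 libraries were joined into 11227 regions wherever they shared 1 bp or more. A region was counted at a gene end when the summit of its most significant peak lay within 1000 bp of either end of a RefSeq protein-coding gene. This gave 1913 regions, 17.0% of all. They lay nearest to the ends of 1821 genes. By the strand of the gene, 1364 of them were at a gene start, 164 at a 3′ end, and 385 at an end of a gene whose strand was not known.

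CUT&RUN maps a DNA-binding protein in permeabilised cells: an antibody, here against STAT3, directs a nuclease to the protein, and the DNA released is sequenced. Naive splenic B cells were grown for 96 h with αCD40 (1 µg/mL) and IL-4 (12.5 ng/mL) and then sorted into IgM+ and IgG1+ cells. In each group 400000 sorted cells received αCD40 (1 µg/mL) for 1 h, with IL-21 (10 ng/mL) in the tested arm or IL-4 (12.5 ng/mL) in the other. IL-4 is not listed among the agents of that hour in the IL-21 arm, so the addition of IL-21 cannot be told apart from the removal of IL-4. The STAT3 KO groups were IL-21 IgM, IL-21 IgG1, IL-4 IgM and IL-4 IgG1, with 1 library each. The same 4 combinations in wild-type (WT) cells had 2 libraries each. The labels give neither the age, strain or sex of the mice, nor how STAT3 was deleted, nor the origin of the replicates. The p-values therefore reflect the scatter of these 12 libraries alone, part or all of which could be technical. In a bulk library, a site bound in fewer cells and a site bound less in every cell cannot be told apart. Peak lists hold no expression, so the B cell label was not checked against marker transcripts.

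STAT3 is a transcription factor that waits in the cytoplasm and is phosphorylated by JAK kinases when a cytokine such as IL-21 engages its receptor. The dimer enters the nucleus and binds palindromes of the form TTCNNNGAA at promoters and enhancers. IL-4 signals mainly through STAT6. Gene starts are among the most open stretches of chromatin, and libraries of cells without the target protein serve as the control for DNA released there without it.

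The promoters shown here are examples from the sets of regions that the results compare. The first set holds promoters bound in all 4 WT IL-21 libraries and in 0 of the 4 KO libraries, chosen by fold among genes whose promoter window held the summit. Each is the RefSeq window from 250 bases before to 50 bases after a transcript's start (GRCm38.p6, the assembly of mm10), written 5′ to 3′ on the strand of the gene, with TTCNNNGAA in capitals. Thg1l encodes a tRNA-His guanylyltransferase, Icam1 an adhesion molecule, Smc6 a subunit of a chromosome maintenance complex, Rabggta part of an enzyme that attaches lipids to Rab proteins, Ncf1 a subunit of the NADPH oxidase and Ubb a polyubiquitin. Jak3, a kinase bound to the shared γ chain of the IL-21 and IL-4 receptors, was chosen by fold like the others and had no match in this window. The starts of the Thg1l, Rabggta and Ubb windows are starts of shorter transcripts, inside the span of the gene. Counted from the left, the summit is base 71 at Thg1l, 74 at Icam1, 109 at Smc6, 32 at Rabggta, 97 at Ncf1, 52 at Ubb and 237 at Jak3.
Thg1l, chr11:45955139-45955438, minus strand: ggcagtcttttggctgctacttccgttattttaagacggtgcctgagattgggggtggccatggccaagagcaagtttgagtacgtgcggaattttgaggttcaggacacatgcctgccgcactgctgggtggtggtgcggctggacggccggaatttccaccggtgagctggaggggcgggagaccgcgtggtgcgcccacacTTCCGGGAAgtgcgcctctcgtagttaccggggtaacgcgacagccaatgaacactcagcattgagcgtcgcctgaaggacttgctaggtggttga
Icam1, chr9:21015690-21015989, plus strand: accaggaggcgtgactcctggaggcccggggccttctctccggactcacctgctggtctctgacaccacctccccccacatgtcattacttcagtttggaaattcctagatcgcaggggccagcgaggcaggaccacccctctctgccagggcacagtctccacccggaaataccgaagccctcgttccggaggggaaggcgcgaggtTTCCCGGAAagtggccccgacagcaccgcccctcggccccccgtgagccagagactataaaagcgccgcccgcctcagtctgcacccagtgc
Smc6, chr12:11265636-11265935, plus strand: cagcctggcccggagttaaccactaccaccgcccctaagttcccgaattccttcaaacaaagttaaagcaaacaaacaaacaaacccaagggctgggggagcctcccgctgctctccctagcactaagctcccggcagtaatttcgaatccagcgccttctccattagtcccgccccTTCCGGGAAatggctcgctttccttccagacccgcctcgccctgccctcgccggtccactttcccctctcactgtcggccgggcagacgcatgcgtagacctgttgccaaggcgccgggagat
Rabggta, chr14:55721874-55722173, minus strand: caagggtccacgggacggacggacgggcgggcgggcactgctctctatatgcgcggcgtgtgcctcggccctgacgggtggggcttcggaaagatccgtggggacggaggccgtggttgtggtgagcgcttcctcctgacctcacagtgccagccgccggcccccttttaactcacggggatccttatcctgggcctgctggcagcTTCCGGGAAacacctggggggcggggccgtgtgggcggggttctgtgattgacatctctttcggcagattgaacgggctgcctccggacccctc
Ncf1, chr5:134229576-134229875, minus strand: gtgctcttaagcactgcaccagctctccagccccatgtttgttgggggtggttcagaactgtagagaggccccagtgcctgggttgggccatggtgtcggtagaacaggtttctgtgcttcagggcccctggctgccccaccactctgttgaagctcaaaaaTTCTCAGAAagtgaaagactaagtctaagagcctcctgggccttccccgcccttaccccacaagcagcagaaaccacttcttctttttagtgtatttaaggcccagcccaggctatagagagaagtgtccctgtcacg
Ubb, chr11:62551481-62551780, plus strand: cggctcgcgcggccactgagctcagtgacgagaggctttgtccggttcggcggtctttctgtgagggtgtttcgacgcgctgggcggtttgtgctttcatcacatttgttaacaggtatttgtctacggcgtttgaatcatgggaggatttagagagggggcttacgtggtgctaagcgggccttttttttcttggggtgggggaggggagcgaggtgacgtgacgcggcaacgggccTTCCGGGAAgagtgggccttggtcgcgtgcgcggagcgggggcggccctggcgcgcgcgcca
Jak3, chr8:71676133-71676432, plus strand: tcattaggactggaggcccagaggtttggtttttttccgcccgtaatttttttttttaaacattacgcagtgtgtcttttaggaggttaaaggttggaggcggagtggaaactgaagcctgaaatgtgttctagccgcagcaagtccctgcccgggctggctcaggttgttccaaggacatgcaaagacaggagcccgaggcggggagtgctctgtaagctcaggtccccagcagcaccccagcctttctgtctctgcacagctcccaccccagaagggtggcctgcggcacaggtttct

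The second set was chosen after the values were seen. It holds promoters of genes whose region had a peak in all 4 KO libraries, and its capitals mark GGGCGG or its reverse complement, the GC box. GC boxes also stand in the first set, where they are not marked. The motif was in 96.6% of 58 windows of regions found in at least 2 KO libraries. Of 18 windows of regions found in all 4 WT IL-21 libraries and in no KO library, 88.9% held it. Prdx3 encodes a mitochondrial peroxiredoxin and Rell1 a membrane protein. Neither window held TTCNNNGAA. The summit is base 241 at Prdx3 and 269 at Rell1.
Prdx3, chr19:60874489-60874788, minus strand: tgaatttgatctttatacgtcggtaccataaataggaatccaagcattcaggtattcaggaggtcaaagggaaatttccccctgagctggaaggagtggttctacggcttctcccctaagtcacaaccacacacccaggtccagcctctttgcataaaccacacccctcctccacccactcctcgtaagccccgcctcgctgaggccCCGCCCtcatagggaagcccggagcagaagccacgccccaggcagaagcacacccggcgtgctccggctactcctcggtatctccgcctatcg
Rell1, chr5:63968848-63969147, minus strand: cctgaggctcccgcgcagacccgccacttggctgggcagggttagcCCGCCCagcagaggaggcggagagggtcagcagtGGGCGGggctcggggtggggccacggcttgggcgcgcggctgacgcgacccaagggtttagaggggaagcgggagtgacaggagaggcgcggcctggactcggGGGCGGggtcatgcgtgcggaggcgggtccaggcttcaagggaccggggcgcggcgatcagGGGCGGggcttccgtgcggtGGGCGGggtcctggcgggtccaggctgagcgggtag

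The share of a library's peaks that lay at gene ends was compared first. In KO cells given IL-21 it was 16.7% (IgM) and 16.5% (IgG1), and in KO cells given IL-4 it was 35.4% (IgM) and 11.8% (IgG1). With IL-21 in WT cells it was 31.5% and 26.3% in IgM cells and 25.1% and 29.4% in IgG1 cells. With IL-4 in WT cells it was 19.9% and 17.1% in IgM cells and 14.0% and 8.35% in IgG1 cells. All 4 WT IL-21 libraries thus stood above all 4 WT IL-4 libraries. The KO IL-4 IgM library, with 270 of its 763 peaks at gene ends, stood above every other library.

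**Figure D1:**
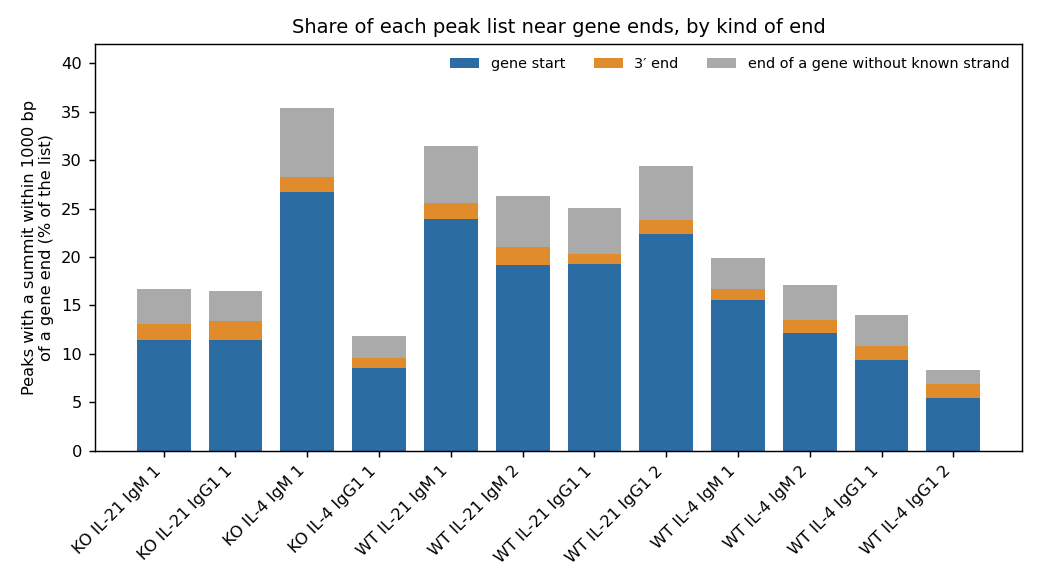
Bars give, for each of the 12 libraries, the percent of its peaks whose summit lay within 1000 bp of a gene end, split by the kind of end. The WT IL-21 libraries sit between 25.1% and 31.5% and the WT IL-4 libraries between 8.35% and 19.9%, while the KO libraries range from 11.8% to 35.4%.

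The mean share was 28.1% ± 2.90 in WT IL-21 libraries and 14.8% ± 4.97 in WT IL-4 libraries (SD, n = 4 each), a difference of 13.2 percentage points. A two-sided exact permutation test of libraries within isotype gave p = 0.0556, the smallest value its 36 arrangements allow, and 0.153 after Benjamini-Hochberg adjustment over the 11 tests run on libraries. Between isotypes, the share was 23.7% ± 6.45 in WT IgM libraries and 19.2% ± 9.71 in WT IgG1 libraries (SD, n = 4 each, exact permutation p = 0.111, adjusted 0.196). Between genotypes it was 20.1% ± 10.4 in KO libraries (SD, n = 4) and 21.4% ± 8.002 in WT libraries (SD, n = 8, exact permutation p = 0.802, adjusted 0.883). These means pool treatments in which the genotypes differed in unlike ways. With IL-21 both KO libraries (16.7% and 16.5%) lay below all 4 WT libraries (25.1% to 31.5%). With IL-4 the KO libraries had 35.4% (IgM) and 11.8% (IgG1), against 8.35% to 19.9% in WT. The difference within a treatment was not tested. Within the 3 groups other than IL-4 IgM, so without that KO library and its 2 WT counterparts, the difference between genotypes was −7.41 percentage points. Leaving out either IL-21 group of both genotypes in the same way turned its sign, to 2.28 without IgM and 1.78 without IgG1.

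Most of the lists' peaks at gene ends were at starts. In the 4 KO libraries 71.3% ± 3.15 of them were at a start and 8.75% ± 3.20 at a 3′ end (SD, n = 4). In the 8 WT libraries these shares were 73.0% ± 4.71 and 7.76% ± 4.24 (SD, n = 8). For both kinds of end the ranges of the genotypes overlapped.

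Regions at gene ends came back in more than 1 library more often than regions elsewhere. A single library held 1405 of the 1913 regions at gene ends (73.4%), against 8775 of the 9314 other regions (94.2%) and 90.7% of all regions. Between replicates, 33.3% of the gene-end peaks in WT IL-21 IgM libraries overlapped a peak of the other replicate, against 22.3% of the other peaks. In WT IL-21 IgG1 libraries the shares were 30.3% of gene-end peaks and 15.9% of other peaks. With IL-4 they were 13.8% and 2.99% in the WT IgM pair, and 7.69% and 4.60% in the WT IgG1 pair, in the same order. The gene-end peaks were ahead in 4 of 4 groups, by 9.85 percentage points on average (21.3% against 11.4%). The exact sign-flip permutation test over 4 groups gave p = 0.125, the smallest it allows (adjusted 0.196). At −log10 q values of 5 and above the lead was 1.68 percentage points (exact permutation p = 0.5).

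The fold is the authors' ratio of the signal at a summit to the local background of its library. In every list but WT IL-4 IgG1 2, gene ends were denser among the 200 peaks of highest fold than in the whole list. In WT IL-4 IgG1 2 the shares were 8% and 8.35%. Of the 10 highest peaks of each list, those at gene ends made up 20% to 90% in KO libraries, 60% to 100% in WT IL-21 libraries and 20% to 70% in WT IL-4 libraries. Of the 200 highest they made up 19% to 49.5% in KO libraries, 36.5% to 43.5% in WT IL-21 libraries and 8% to 32% in WT IL-4 libraries. The chance that a gene-end peak had a higher fold than another peak of the same list, with ties counted as 0.5, was 0.549 ± 0.0419 in KO libraries (SD, n = 4) and 0.547 ± 0.0263 in WT libraries (SD, n = 8). It was below 0.5 in KO IL-21 IgM (0.493) and in WT IL-4 IgG1 2 (0.498). Over the 8 WT libraries a two-sided exact sign-flip permutation test against 0.5 gave p = 0.0156 (adjusted 0.0859), with 7 of 8 libraries above 0.5. The mean excess over 0.5 was 0.0470, and 0.0720 at −log10 q values of 5 and above. Neither treatment (exact permutation p = 0.111), isotype (0.389) nor genotype (0.938) separated this chance beyond the spread between libraries.

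**Figure D2:**
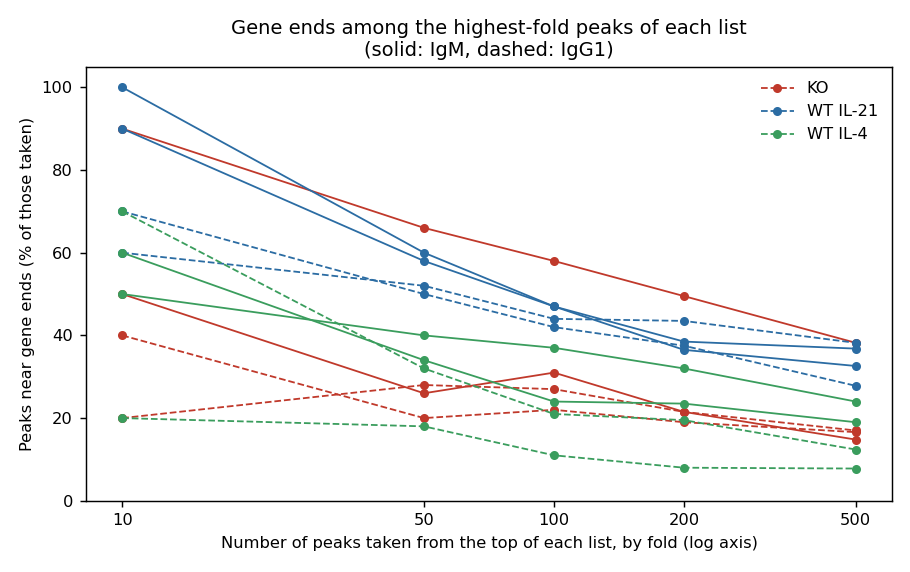
Each line is a library, and gives the percent of peaks at gene ends (vertical axis) among its 10, 50, 100, 200 and 500 peaks of highest fold (horizontal log axis). WT IL-21 lists hold 36.5% to 43.5% of gene-end peaks among their 200 highest, and the KO IL-4 IgM list 49.5%.

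Of the gene-end peaks, the share with a fold of at least 5 was 51.3% ± 8.97 in WT IL-21 libraries and 32.5% ± 5.27 in WT IL-4 libraries (SD, n = 4 each). The groups did not overlap, and the exact permutation test again gave its smallest p of 0.0556 (adjusted 0.153). Among the other peaks of the same lists the share was 39.3% ± 10.5 with IL-21 and 25.0% ± 8.07 with IL-4 (SD, n = 4 each). The difference of 18.8 percentage points at gene ends was 39.9 when every list was cut to its 623 most significant peaks, and 4.96 when a −log10 q of at least 5 was asked for (exact permutation p = 0.389).

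The regions were then compared by presence. Gained is used here for a region present in 4 of 4 WT IL-21 libraries but 0 of 4 WT IL-4 libraries. At gene ends 40 of the 1447 regions found in WT cells were gained (2.76%), against 58 of 6014 elsewhere (0.964%) and 1.31% of all regions found in WT. Of these 40, 33 were at a gene start, 1 at a 3′ end and 6 at an end of unknown strand. The reverse pattern, presence in each WT IL-4 library and in 0 WT IL-21 libraries, was found at 0 regions, so 0% of all. Fisher's exact test on presence gave each gained region p = 0.0286, the smallest that 4 against 4 libraries allow, and 0 regions passed Benjamini-Hochberg adjustment over 7461 regions (smallest adjusted p = 1), so that the pattern is a count of libraries and not a call for any single region. Without the WT IL-21 IgG1 1 library, with gained asked only of the WT IL-21 libraries that remained, the count at gene ends was 83. Over all regions the count rose likewise, from 98 to 215.

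By isotype, 122 of the 1093 gene-end regions found in WT IgM cells were present in both IL-21 libraries but not in either IL-4 library (11.2%, against 6.64% of all regions found in WT IgM). In WT IgG1 cells these were 80 of 650 (12.3%, against 5.54% of all). The reverse was found at 9 gene-end regions in IgM cells (0.206% of all regions) and at 0 in IgG1 cells (0.0306% of all).

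The regions of highest fold with IL-21 were also present with IL-4. They were ranked by their IL-21 fold, which favours a higher value there. A fold is relative to its own library's background, so folds of different libraries are set side by side as a description, with no test. Thg1l had folds of 117, 62.4, 60.1 and 63.3 in the WT IL-21 libraries (IgM 1, IgM 2, IgG1 1 and IgG1 2, the order used throughout) and 13.5, 10.8, 19.2 and 8.56 in the WT IL-4 libraries. Lsm4, which encodes a subunit of the ring that binds U6 RNA in splicing, had 103, 66.7, 59.6 and 56.7 with IL-21 and 15.99, 11.0, 18.0 and 10.1 with IL-4. At both genes every IL-21 fold exceeded every IL-4 fold, and they took the top 2 ranks of all 4 WT IL-21 lists. They were also the only regions of all 11227 with a peak in 8 of 8 WT libraries and 0 of 4 KO libraries (0.0178% of all regions). For both, Fisher's exact test between genotypes gave p = 0.00202, or 0.947 after adjustment over 11227 regions, where 0 passed.

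Slc39a1, a zinc importer, took rank 3 of all 4 WT IL-21 lists with folds of 95.4, 40.5, 48.6 and 47.1. With IL-4 it had 6.28 and 6.33 in the IgM libraries, 6.30 in IgG1 1 and no peak in IgG1 2. Its fold with IL-21 averaged 57.9 ± 25.2 (SD, n = 4). The KO libraries had no peak there.

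The other 7 leading regions found in all WT IL-21 libraries, in some WT IL-4 libraries and in no KO library averaged 15.1 to 28.4 with IL-21. They were Lmna, which encodes lamins of the nuclear envelope (28.4 ± 10.8, SD, n = 4), Icam1, Arf6, a small GTPase of membrane traffic, Jak3, Ubb, Fastk, a kinase-like protein of mitochondrial RNA, and Crebrf, a regulator of a CREB-type factor. Icam1 had 31.1, 27.7, 10.5 and 24.6 with IL-21, and with IL-4 it had 7.92 and 5.43 in the IgM libraries and no peak in the IgG1 libraries. Jak3 had 29.1, 19.5, 9.78 and 17.5 with IL-21, and 6.50, 3.99 and 7.38 with IL-4, with no peak in IgG1 2. Of all 22 regions with this pattern of presence, 16 had every IL-21 fold above every IL-4 fold, these 10 among them. In the other 6 the folds overlapped or ran the other way: the gene LOC114841036 had a mean of 4.52 with IL-21 and 8.23 in its single IL-4 library, and Opn3, an opsin, had 3.56 and 4.22.

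Of the 40 gained regions, the highest was at the start of Smc6, with folds of 29.9, 17.2, 14.2 and 22.6. Its summit also lay within reach of an end of Gen1, a Holliday junction resolvase. Rabggta had 33.4, 15.2, 16.7 and 17.6. Ncf1 had 27.9, 18.3, 12.1 and 17.1. In all 3 the highest fold was in the library IgM 1, as it was at 14 of the 15 strongest gained regions, Rtn2 being the exception.

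The 40 gained regions lay nearest to 40 of the 21887 protein-coding genes. Among them were 3 of the 25 genes on a list of Akt, Gsk3 and mTOR signalling. That list was chosen with earlier results of these data known, so the count is a description and not a test. Gsk3a, which encodes a kinase that phosphorylates glycogen synthase, had 25.5, 16.7, 18.1 and 20.9. Akt2, a kinase downstream of PI3K, had 22.0, 14.3, 10.8 and 20.7. Crtc2, a CREB coactivator, had 25.4, 22.9, 7.81 and 16.1, and its region also reached an end of Slc39a1. The Akt2 summit lay 295 bp and the Gsk3a summit 495 bp outside the gene.

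The rest of the 15 averaged 10.4 to 17.8. Bcl6, the repressor that defines germinal centre B cells, had 29.7, 11.6, 6.67 and 14.9, with the summit 154 bp inside the gene. The others were Muc1, a mucin, Elmo2, which acts in Rac signalling, the uncharacterised Gm46977, near an end of the transcription factor gene Etv6, Crlf2, a chain of the TSLP receptor, Lcmt2, a tRNA modification enzyme, Nsun4, an RNA methyltransferase of mitochondria, Serpinb6a, a protease inhibitor next to the cell death kinase Ripk1, and Rtn2, a reticulon. At Lcmt2 the folds were 20.9, 11.9, 4.10 and 11.7, the widest spread of the 15 in ratio. Rtn2 was the gained region farthest from its gene, 911 bp from the start, just inside the 1000 bp limit. Dennd4b, at 1011 bp, was just outside it and had 17.1, 13.2, 9.63 and 8.02 with IL-21 in WT cells, no peak with IL-4 in WT cells, and 5.07 and 4.44 with IL-4 in KO cells.

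**Figure D3:**
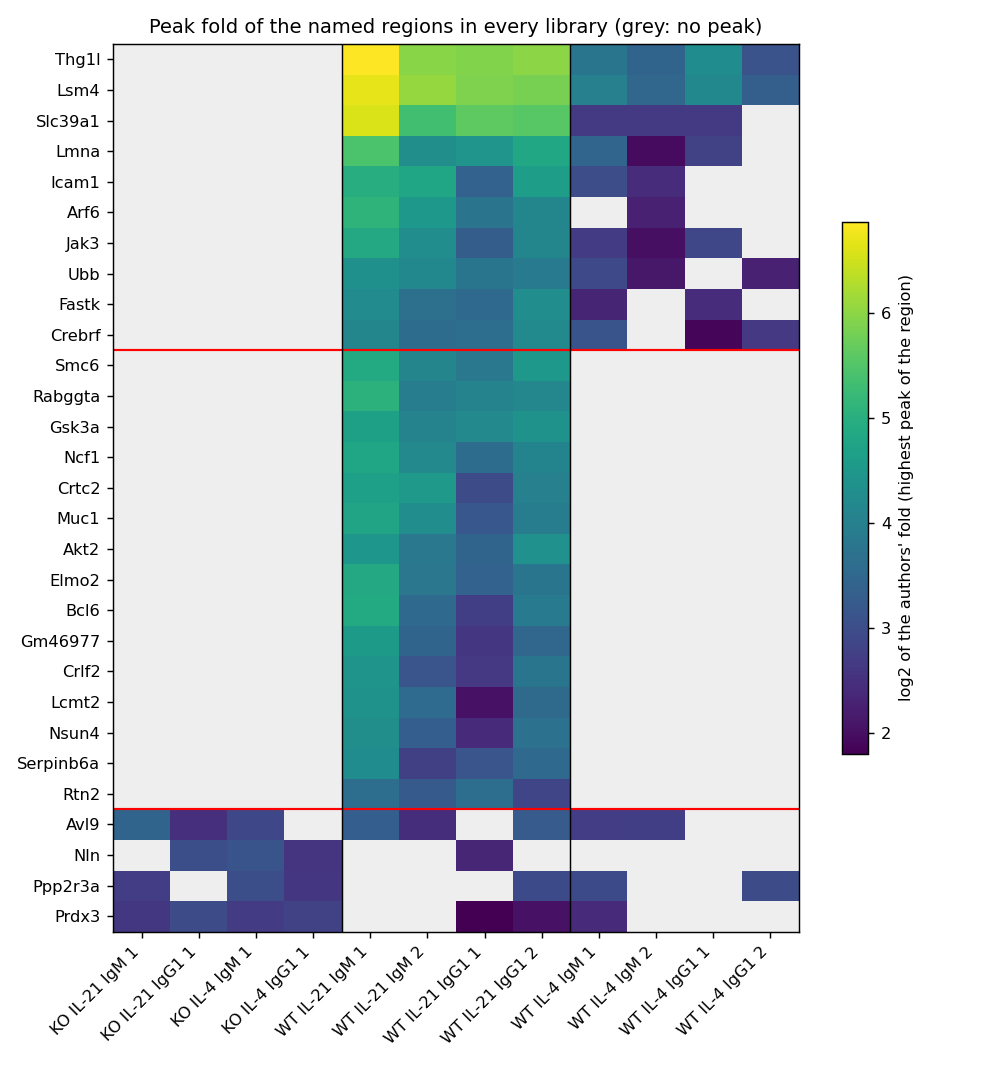
Rows are the 10 leading regions found with both treatments (top), the 15 strongest gained regions (middle) and the 4 strongest regions found in at least 3 KO libraries (bottom), columns are the 12 libraries, and colour is the log2 of the authors' fold, with grey for no peak. The top and middle blocks are grey in all 4 KO columns, and the middle block also in all 4 WT IL-4 columns.

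The other 25 gained regions had mean folds of at least 4.54. Among them were Zfp36, which encodes the mRNA decay factor tristetraprolin, with 16.2, 8.30, 7.94 and 7.83, and Gadd45g, a growth arrest gene and the single gained 3′ end, with 10.8, 4.05, 6.19 and 7.26. Over all 40, the median of the mean IL-21 fold was 9.24, against 9.07 at the 58 gained regions elsewhere. Their median width was 822 bp, against 783.5 bp elsewhere. In KO cells 3 of the 40 had a peak, Cmtm6 at 4.32 with IL-21 in IgM cells, and Parp3 at 3.76 and Trappc2l at 4.56 with IL-4 in IgM cells.

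STAT pathway genes were then counted, using lists chosen with earlier results of these data known. Of 41 genes of JAK-STAT signalling and feedback, 8 (19.5%) had a gene-end region in at least 2 WT IL-21 libraries, against 288 of 21887 protein-coding genes (1.32%). They included Jak3, Stat3, Stat5b, the feedback inhibitors Cish, Socs1 and Socs3, and the phosphatase Ptpn2. None of the 41 had a gene-end region in a KO library, and 0 had a gained one. In KO libraries 3.03% of all protein-coding genes had such a region, a share at which few would be expected among 41. The KO counts of other lists were also small: 3 of 26 survival and proliferation genes (11.5%) and 3 of 30 B cell genes (10%). They were 2 of 22 NF-κB genes (9.09%), 2 of 25 Akt, PI3K and mTOR genes (8%) and 2 of 42 ribosomal protein genes (4.76%). Of 30 Mediator genes 1 had such a region, and 0 of the AP-1, plasma cell, RNA processing and DNA repair genes did.

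At the start of Stat3 itself the folds were 23.5, 11.4, 8.55 and 12.6 with IL-21, and 3.57 and 4.70 with IL-4 in IgM cells, with no peak in IgG1 cells with IL-4. Cish had 15.5 and 8.32 in IgM cells and 7.43 in IgG1 2. Socs3 had 13.8 and 8.95 in IgM cells and 7.74 in IgG1 2, with the summit 908 bp from the start. For both, the missing library was IgG1 1, the WT IL-21 list with the fewest peaks (865), so that neither reached the count of 4 for gained.

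The AP-1 and immediate early genes had the largest share of the lists, 8 of 25 (32.0%). These were Zfp36, Jund, Junb, Dusp1, Egr1, Fos, Fosl2 and Batf. Dusp1, a phosphatase that turns off MAP kinases, had 12.6 and 4.44 in IgM cells and 10.4 in IgG1 2. Junb was reached at its 3′ end, with 10.2 and 6.36 in IgM cells and 6.0 in IgG1 2, and with 4.62 and 4.22 in the IgM libraries with IL-4.

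The counts of the other lists were 5 of 26 survival and proliferation genes (19.2%), 5 of 30 B cell identity and germinal centre genes (16.7%), 3 of 20 plasma cell genes (15.0%), 3 of 25 Akt, PI3K and mTOR genes (12%), which were the gained Akt2, Crtc2 and Gsk3a, and 1 of 22 NF-κB genes (4.55%), Rela. Among the B cell genes were Bcl6, the coactivator Pou2af1, the chemokine receptor Cxcr5 and the E protein inhibitor Id3. Of the 44 listed RNA processing genes only Thg1l and Lsm4 counted, and of the 30 listed Mediator, 30 DNA repair and 42 ribosomal protein genes 0 did. These counts hold for the listed genes only. Smc6, Lcmt2 and Nsun4, each with a gained region, were on none of the lists. Of the markers of other cells, 0 of 12 T and NK cell genes and 0 of 13 myeloid genes had a gene-end region in any library, against 8.32% of all protein-coding genes, a share that would give about 1 gene in lists of this size.

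In KO cells, a larger share of the regions at gene ends than of the others recurred. Of the 669 gene-end regions found in KO cells, 78 (11.7%) had a peak in at least 2 of the 4 libraries, against 75 of 3450 elsewhere (2.17%) and 3.71% of all. Of these 78, 64 were at a start, 2 at a 3′ end and 12 at an end of unknown strand. Without the KO IL-4 IgM library, 38 were present in at least 2 of the other 3, of 91 such regions in all. In WT cells 26 of the 78 had no peak, and neither did 51 of the 153 regions of the whole series found in at least 2 KO libraries. This pattern was shown by 1.36% of all gene-end regions and 0.454% of all regions.

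Their folds were low and even. The 4 highest found in at least 3 KO libraries were Avl9, a gene of late secretory traffic, Nln, a peptidase, Ppp2r3a, a phosphatase subunit, and Prdx3. Avl9 had 10.8 and 5.62 with IL-21 in KO IgM and IgG1 cells and 7.40 with IL-4 in KO IgM cells, against 9.89, 5.53 and 9.48 in 3 WT IL-21 libraries and 6.60 and 6.63 in the WT IL-4 IgM libraries. The KO and WT folds at Avl9 overlapped.

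Prdx3 had 6.18 and 7.80 with IL-21 in KO IgM and IgG1 cells and 6.44 and 6.90 with IL-4, against 3.47 and 4.11 in the WT IL-21 IgG1 libraries and 5.28 in WT IL-4 IgM 1. All KO folds at Prdx3 lay above the WT folds. It was 1 of 4 gene-end regions with a peak in all 4 KO libraries, with Sh3bp4, Rell1 and Abcb9. The highest gene-end fold of a KO list was 10.8 with IL-21 in IgM cells (Avl9), 8.12 with IL-21 in IgG1 cells (Nln) and 9.84 with IL-4 in IgM cells (Aff1, a subunit of an elongation complex).

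Others among the 5 highest gene-end regions of a KO list were Usp3, Rwdd3, Padi2 and Pdcl3 with IL-21 in IgM cells, and Ccndbp1, Lamtor3 and Dctpp1 with IL-21 in IgG1 cells. With IL-4 they were Napepld, Sec61a1, Psmc6 and Usp3 in IgM cells and Bsnd, Jarid2 and Orai1 in IgG1 cells. Mysm1, an H2A deubiquitinase, had 6.18 with IL-21 and 5.47 with IL-4 in KO IgM cells and 5.63 with IL-4 in KO IgG1 cells, and no WT peak. Rpl31, Ccndbp1, Ccsap and Pex10 were likewise found in 3 KO libraries and in no WT library.

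Between genotypes, 65 of the 1288 gene-end regions found with IL-21 in either genotype were present in each WT IL-21 library and in neither KO IL-21 library (5.05%, against 2.38% of all regions found with IL-21). With the KO IL-4 libraries also asked to lack a peak, 59 of the 1447 found in WT remained (4.08%, against 1.68% of all). Of the 1447 gene-end regions found in WT, 68 were in all 4 WT IL-21 libraries (4.70%, against 2.24% of all), and 9 of these 68 had a KO peak. They included the gene of importin β, Kpnb1, found in all 8 WT libraries and in both KO IgM libraries, and Irf1, an interferon regulatory factor, with 5.11, 4.65, 5.19 and 4.16 with IL-21 in WT cells and 3.54 with IL-21 in KO IgM cells.

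The place of the summit at the gene start differed between regions found in at least 2 KO libraries and gained regions. Of the 64 starts found in at least 2 KO libraries, 39 (60.9%) had their summit within 100 bp of the start, with a median distance of 57.5 bp. Of the 33 gained starts, 2 (6.06%) did, and 28 lay between 100 and 400 bp away, with a median of 192 bp. Starts found in all 4 WT IL-21 libraries, at least 1 WT IL-4 library and no KO library were nearer to the share of all starts. Of these 18 starts, 5 (27.8%) had their summit within 100 bp, with a median of 154.5 bp. The median region width was 822 bp for gained regions and 386 bp for regions of at least 2 KO libraries. The part of width in these distances was not tested. Without WT IL-21 IgM 1 the share at gained starts was 5 of 34 (14.7%), and without WT IL-21 IgG1 1 it was 6 of 65 (9.23%). Over all 1364 starts the share was 33.4%, and over the 957 starts found in a single library 31.3%. Without the KO IL-4 IgM library the share at KO starts was 55.2% of 29. Some genes have several starts: measured from the nearest start in the RefSeq promoter table instead, the shares were 54.7% at starts found in at least 2 KO libraries, 18.2% at gained starts and 34.6% over all members near such a start.

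**Figure D4:**
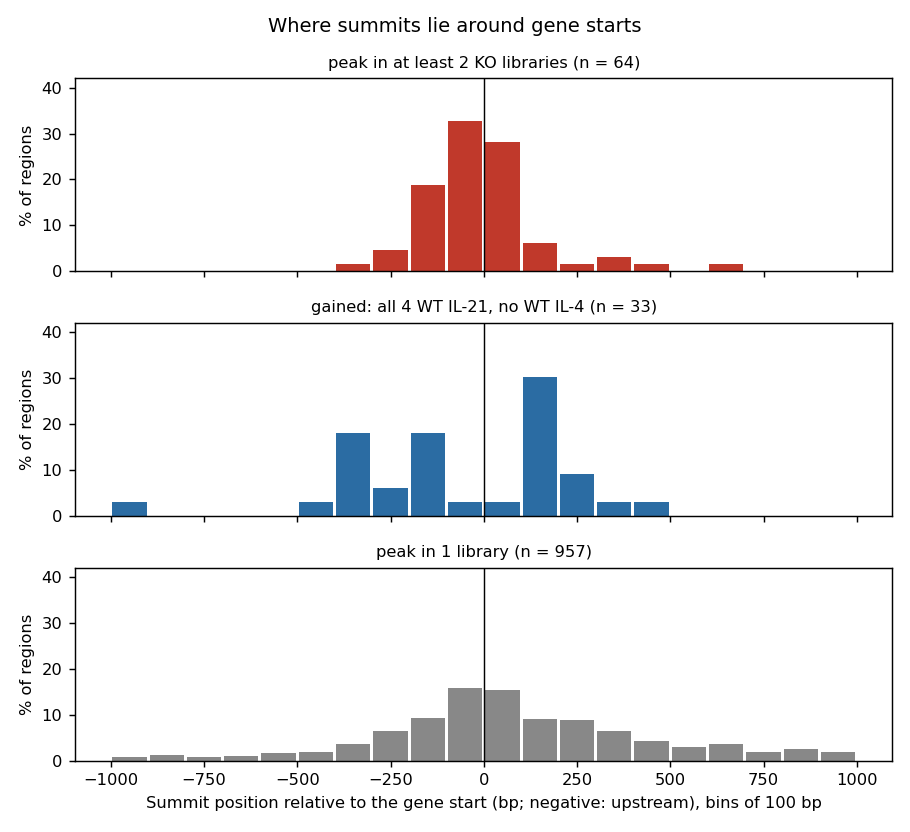
Bars give the percent of regions (vertical axis) in 100 bp steps of the summit's distance from the gene start (horizontal axis, negative upstream) for starts found in at least 2 KO libraries, gained starts and starts found in 1 library. The KO starts peak at the start itself, whereas only 6.06% of the gained starts lie within 100 bp of it.

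The same measure was taken per library, after these values were seen. The share of start peaks with a summit within 100 bp of the start was 42.3%, 44.6%, 55.4% and 42.9% in the KO libraries (IL-21 IgM, IL-21 IgG1, IL-4 IgM and IL-4 IgG1). In WT cells it was 26.5%, 26.2%, 32.9% and 25.9% with IL-21, and 45.1%, 41.3%, 24.6% and 23.5% with IL-4 (IgM 1, IgM 2, IgG1 1 and IgG1 2). KO libraries averaged 46.3% ± 6.15 (SD, n = 4) and WT libraries 30.8% ± 8.24 (SD, n = 8), with WT IL-4 IgM 1 inside the KO range and IgM 2 just below it. The exact permutation test within treatment and isotype gave p = 0.0123, the smallest its 81 arrangements allow, and 0.0859 adjusted over the 11 tests. The difference was 15.5 percentage points, and 24.6 at −log10 q values of 5 and above. Between treatments in WT cells the shares were 27.9% ± 3.37 with IL-21 and 33.6% ± 11.2 with IL-4 (SD, n = 4 each, exact permutation p = 0.333).

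The promoter windows of the same regions were then searched for TTCNNNGAA on both strands. A window held the summit at 690 of the 1913 regions. Of the 58 windows of regions found in at least 2 KO libraries, 0 held TTCNNNGAA, which allows a share of up to 5.17%. Regions with a peak in any number of KO libraries did hold it. It was in 9 of 167 windows (5.39%) of regions without a WT peak. With at least 1 KO and 1 WT peak, it was in 7 of 122 windows (5.74%). Of the 18 windows of regions found in all 4 WT IL-21 libraries and in no KO library, 13 (72.2%) held it, with an exact 95% Clopper-Pearson interval of 46.5% to 90.3% that covers counting error only. The share was 26.3% of 19 windows with 3 WT IL-21 libraries, 21.6% of 37 with 2 and 8.12% of 234 with 1, again with no KO peak. Of all 32817 RefSeq windows, 8.29% held the motif, and of the 21230 windows of protein-coding genes, 7.69% did. Leaving out the WT IL-21 IgG1 1 library gave 55.2% of 29 windows.

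**Figure D5:**
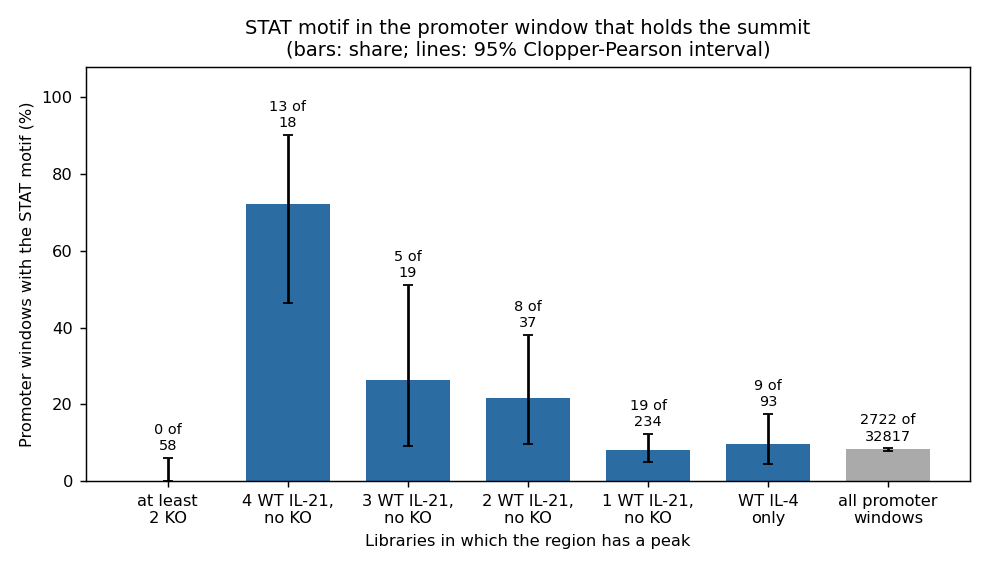
Bars give the percent of promoter windows that hold the STAT motif (vertical axis, lines for the 95% Clopper-Pearson interval) by the libraries in which the region had a peak. The share is 0 of 58 for regions of at least 2 KO libraries, 72.2% for regions of all 4 WT IL-21 libraries without KO peaks, and 8.29% for all promoter windows.

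With the window of the nearest start taken for every region at a start, whether or not it held the summit, the shares were 1.56% of 64 windows for regions of at least 2 KO libraries and 37.5% of 48 for regions of all 4 WT IL-21 libraries without KO peaks. The windows that held the summit were searched for 4 more motifs and for TTCCNGGAA, a narrower form that is also counted as TTCNNNGAA. TTCCNGGAA was found in 0 of the 58 KO windows, 8 of the 18 WT windows (44.4%) and 1.15% of all windows. GGGCGG, the GC box, was found in 56 of the 58 (96.6%), in 16 of the 18 (88.9%) and in 559 of the 690 windows of all gene-end regions. It was in 35.6% of all RefSeq windows and in 46.2% of the 21230 windows of protein-coding genes. CCAAT was found in 20.7% of the 58, in 22.2% of the 18 and in 37.4% of all RefSeq windows. TGACGTCA was found in 2 of the 58 and 0 of the 18, against 1.79% of all, and TGANTCA in 3 and 2, against 7.81% of all.

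Each of the 13 WT windows with the motif held 1 site, and all 13 sites lay inside the region's own bounds. Their centres were 56 to 209 bp from the summit, with a median of 127 bp, and all lay upstream of the window's own start. The site was TTCCGGGAA at Thg1l, Smc6, Rabggta and Ubb, TTCCCGGAA at Icam1 and TTCTCAGAA at Ncf1, as in the sequences above. At Thg1l its centre lay 42 bp upstream of that start and 138 bp from the summit, and at Smc6 69 bp upstream and 73 bp from the summit. The window at Stat3 held no match, which says only that the letters are not in that window.

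Between isotypes, 31 of the 1086 gene-end regions found in WT IL-21 cells were present in both IgM libraries but not in either IgG1 library (2.85%, against 2.16% of all regions found there). The reverse was found at 8 (0.737%, against 0.302% of all). The WT IL-21 IgM lists held 2034 and 1171 peaks and the IgG1 lists 865 and 1485. The part of list length in these counts was not tested. Among the highest IgM regions were Pou2af1 at 12.6 and 6.07, Nop53, a ribosome assembly factor, at 10.2 and 5.56, Cenpt, a kinetochore protein, and Gimap9, a GTPase of lymphocytes. Among the highest IgG1 regions were Rbm3, a cold-induced RNA-binding protein, at 5.17 and 6.89, Ell, an elongation factor, Id3, and Ube2j1, a ubiquitin-conjugating enzyme, but of these Ell and Id3 also had peaks in WT IgM cells with IL-4.

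With IL-4, 19 regions were present in both WT IgM libraries but not in either WT IgG1 library, and all 19 were at gene ends (3.70% of the 514 found in WT IL-4 cells, against 0.556% of all regions found there). The reverse was found at 2 gene-end regions (0.389%, against 0.117% of all). Of the 19, 13 had a peak in at least 1 KO library and 16 in at least 1 WT IL-21 library. Icam1, Stat3 and Junb were among them without a KO peak, and Avl9, Id3 and Sec23a, a coat protein of vesicles, were among those with a KO peak. The WT IL-4 IgM lists were longer, at 1455 and 853 peaks, than the IgG1 lists, at 651 and 623, and the part of list length in this count was not tested.

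Few 3′ ends recurred, as was so for regions of the whole series. Of the 164 regions at a 3′ end, 152 were found in a single library, against 90.7% of all regions. This held for 8775 of the 9314 regions away from gene ends and for 957 of the 1364 at a gene start. Those found in at least 3 WT IL-21 libraries were Gadd45g, Junb, Ndufab1, a carrier protein of mitochondria, Cnksr3, a scaffold protein, and Lars2, the mitochondrial leucyl-tRNA synthetase. Ndufab1 had 10.9, 4.98, 6.04 and 8.45 with IL-21 and 5.13 in WT IL-4 IgM 2. Cnksr3 had 10.9 and 4.43 in IgM cells and 12.01 in IgG1 2. Lars2 had folds of 2.57 to 3.05 in 5 WT libraries and 2.68 with IL-4 in KO IgM cells, the lowest and most even of the 5.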

How the data were processed

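STAT3 CUT&RUN was measured in 12 antibody libraries of 8 groups. An input sample was not used. Per the submitters' processing notes the build was mm10 and the tools, listed without roles, included MACS2 2.2.7.1 and deepTools 3.5.1 beside Bowtie2 2.4.1 and Trimmomatic 0.39. Which control peaks were called against, how reads were filtered and how the spike-in was used were not given in the sources used here. The authors called peaks for each library separately, and the deposited lists give for each peak a score, a fold (the ratio of signal to local background) and, as −log10 values, the p and q of the peak. The authors' fold is each peak's own value and served for description, ranking and filtering within its own list. The exception is the share of peaks with a fold of at least 5, which was compared between libraries and therefore depends on each library's depth and background. Depth is not given with the lists. Absence of a peak therefore does not show absence of binding.

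Of 13908 peaks, 395 outside chromosomes 1 to 19, X and Y were left out, and 13513 entered. Gene spans came from the RefSeq table of GRCm38.p6 (21887 protein-coding genes), and strand and promoter sequences from the RefSeq promoter table, which covered 17492 of them. Where windows of opposite strands overlapped, the sequences matched at 1681 of 1681 overlaps. Distances to gene ends were taken from the summit of the most significant peak of a region, and the fold of a region in a library is that of its highest peak there. Positions are 1-based.

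The members, gene lists and tests were chosen with earlier results of these data known. Genes were named by the nearest end. Named were the 15 gained regions of highest mean fold, the 10 highest found in all WT IL-21 libraries, some WT IL-4 library and no KO library, the 5 highest of those in at least 3 KO libraries and of each KO library, the 5 highest specific to each isotype, and listed genes found in at least 2 WT IL-21 libraries. Others were named after their values were seen, and some genes that met these rules are not reported here. Tests were exact permutations of libraries within strata and Fisher's exact tests of presence, adjusted by Benjamini-Hochberg, run in Python 3.11.15 with numpy 2.4.6, pandas 2.3.3 and scipy 1.17.1, and tested on simulated data. Alternatives changed the distance (500 or 2000 bp), the −log10 q (at least 5), the list length, the overlap (at least 100 bp), the strata, and left out each library. Intervals and the limit of a count of 0 (3 counts) cover counting error only.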

Additional observations from a re-analysis of the deposited data

Results flagged for a closer look

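In the WT IL-21 group of 4 libraries, IgG1 1 stood apart in the share of start peaks within 100 bp of the start (32.9%), and IgM 1 in the highest fold at a gene end (117 at Thg1l). These were 2 of 18 sets of 4 libraries, and chance flags about 1 in 20.

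The difference between IL-21 and IL-4 ran in opposite directions in 8 of 18 comparisons of groups. None of these differences between groups was tested, and each KO value rests on 1 library per treatment. The number of gene-end peaks differed by −91 in KO IgM cells and 256 in WT IgM cells, and by −117 in KO IgG1 cells and 255 in WT IgG1 cells. The share of peaks at gene ends differed by −18.7 percentage points in KO IgM cells and 10.4 in WT IgM cells. The share of gene-end peaks with a fold of at least 5 differed by −14.3 in KO IgM cells and 23.5 in WT IgM cells, and by −4.91 in KO IgG1 cells and 14.0 in WT IgG1 cells. In IgG1 cells the chance that a gene-end peak outranked another peak differed by −0.0415 in KO and 0.0527 in WT, and the highest gene-end fold by −1.81 in KO and 47.0 in WT. The share of start peaks within 100 bp of the start differed by −16.9 percentage points in WT IgM cells and 5.36 in WT IgG1 cells.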

How the results depend on the processing

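Of 11 tests on libraries, 0 passed 0.05 after adjustment under any alternative (smallest adjusted p = 0.0679, exact permutation tests). At −log10 q values of 5 and above, the genotype difference in the share at gene ends was 0.00876 percentage points, and differences in the chance of a higher fold turned to −0.0590 for treatment, −0.0938 for isotype and −0.0245 for genotype. With lists of equal length they turned to −0.00728 for isotype and −0.00239 for genotype. The cause was not tested. For genotype differences a KO library was left out with its 2 WT counterparts. Leaving out each library gave −7.41 to 2.28 for the genotype difference in share, and −0.0201 to 0.0247 for that in the chance of a higher fold. At gene ends it gave 40 to 83 gained, 0 to 1 lost, and 2 to 5 regions in all WT and no KO libraries. Each rule was then asked only of the libraries that remained. The highest of these counts came without WT IL-21 IgG1 1, WT IL-4 IgG1 1 and WT IL-4 IgG1 2, in that order. The share at gene ends with IL-21 minus IL-4 stayed between 11.8 and 14.6 points.

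Replicate numbers are not said to mark shared animals or days. With the replicate number as a block, the exact p for the 13.2 points between IL-21 and IL-4 was 0.125, the smallest that 16 arrangements allow, and no call changed. Library 1 was above library 2 in 3 of 4 WT groups for the share at gene ends, and in 4 of 4 for the share of start peaks within 100 bp of the start. Depth is unknown, so a missing peak and a weak one cannot be told apart.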

Other observations

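Some ends are shared by neighbouring genes. Of the 1913 gene-end regions, 320 (16.7%) had their summit within 1000 bp of the ends of more than 1 protein-coding gene. This held for 11 of the 78 regions found in at least 2 KO libraries (14.1%) and for 13 of the 40 gained regions (32.5%), among them Smc6 with Gen1, Lcmt2 with Adal, and Gabarap, an autophagy gene, with Ctdnep1. At such regions the nearest gene is a name and not a target.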
